A study of Mus musculus with 12 samples.

Results

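The 38 genes described here code for the machinery that copies DNA in S phase and for regulators of entry into it. They were chosen by symbol from a list of replication and S phase genes. Each symbol matched 1 row of the read count table, so 38 of its 47069 genes are described, and all 38 passed the filter on low counts, which kept 15925 genes. The libraries come from intracranial tumors of B16 F1, a pigmented mouse melanoma line, in C57BL/6 mice. In each mouse 100000 cells were placed in the brain, and the tumor was taken on day 9. The question of the study is whether checkpoint antibodies act on a brain tumor in the same way with and without a second tumor elsewhere in the body. There were 4 groups of 3 libraries, which the series text calls biological replicates. The first had the intracranial tumor only and IgG control antibody, and the second had the intracranial tumor only and 2 checkpoint antibodies, against PD-1 and CTLA-4, for which the word therapy stands below. The third had intracranial and extracranial tumors and IgG, and the fourth had both tumors and therapy. All 4 groups thus carried the same brain tumor. No source used here gives the antibodies' doses and days or the animals' ages.

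Replication starts at origins, where the origin recognition complex (Orc1, Orc6) with Cdc6 and Cdt1 loads the ring of Mcm2 to Mcm7. The kinase Cdc7, Mcm10, Cdc45 and the GINS proteins turn that ring into the active helicase, and the polymerases, the sliding clamp Pcna and its loader follow it. Many of these genes are transcribed at the G1/S boundary by E2F factors, which the retinoblastoma protein holds in check until cyclin E and other cyclins act with their kinases. Their summed mRNA is widely used as a sign of how many cells of a tissue are dividing. In libraries of whole tissue, fewer cells in S phase and less of these mRNAs per cell cannot be told apart.

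Promoter windows of RefSeq (GRCm38.p6), from 250 bases before to 50 bases after a gene's start, were found for 32 of the 38 genes. They were searched on both strands for 4 spellings of the E2F motif, TTTCCCGC, TTTCGCGC, TTTGCCGC and TTTGGCGC, which can overlap each other on opposite strands. At least 1 of the 4 stood in a window of 11 of the 32 genes, 34.4%, against 2.6% of the 27025 genes with a window. The letters CCAAT, the box bound by NF-Y, stood in windows of 19 of the 32 genes, 59.4%, against 41.1% of all genes with a window. Before the start alone, the E2F letters stood in windows of 8 of the 32 genes, 25%, against 2.16%. A match is a description of the letters and not a measured binding site. The 5 genes below are those with a match before the start and the smallest p for the therapy effect in both-tumor mice. They are shown because E2F control is the best known feature that these genes share. Each stretch is printed in the direction of transcription, with the matched letters in capitals, and a match that reads as the reverse complement lies on the other strand.
Pola1, minus strand, chrX:93632266-93632313: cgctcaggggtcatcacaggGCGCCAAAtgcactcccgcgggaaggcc
Rfc3, minus strand, chr5:151651209-151651229: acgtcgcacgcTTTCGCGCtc
Orc1, plus strand, chr4:108579416-108579445: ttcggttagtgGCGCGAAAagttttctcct
Mcm6, minus strand, chr1:128359725-128359835: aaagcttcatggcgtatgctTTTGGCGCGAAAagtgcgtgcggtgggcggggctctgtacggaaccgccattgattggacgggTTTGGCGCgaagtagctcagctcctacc
Mcm7, minus strand, chr5:138172030-138172059: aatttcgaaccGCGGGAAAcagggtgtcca
In Mcm6 the first capital run holds 2 overlapping matches, 1 on each strand, and another match follows. The stretches of Rfc3, Orc1 and Mcm7 lie where the GENCODE annotation also places an exon.

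Library totals ran from 18427495 to 22294182 reads, and each of the 38 genes had at least 30 reads in every library. The label of the tumor line matched its markers: the 10 pigment genes summed to between 22710 and 30420 CPM (counts scaled to library size with TMM factors) over the 12 libraries, and 0 of the 10 passed the test in any comparison. Pmel, a melanosome protein used as a pigment reference here, lay between 4802 and 7850 CPM. The libraries differed in markers of brain tissue and of immune cells. The 8 neuron markers summed to 137 to 434 CPM in intracranial-only IgG, 11.4 to 22.7 in intracranial-only therapy, 15.5 to 505 in both-tumor IgG and 283 to 1139 in both-tumor therapy. In both-tumor IgG, replicate 2 stood apart from the other two, with a mean log2 CPM of the neuron markers of 0.20 against 4.94 and 5.53, and its sample name ends differently from the other 11. Rbfox3, Mog and Siglech, markers of neurons, oligodendrocytes and microglia, each had 0 reads in 1 or more intracranial-only therapy libraries. In the comparisons that use both-tumor IgG, the count or the median of the 38 genes is also given without replicate 2, while the values of single genes and of other lists include it.

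Averaged over the 38 genes, the mean log2 CPM was 6.29, 5.95 and 6.10 with IgG and 6.59, 6.48 and 6.30 with therapy in mice with the intracranial tumor only. It was 5.97, 6.65 and 5.69 in both-tumor IgG and 5.33, 4.10 and 4.92 in both-tumor therapy. The 3 libraries of mice with both tumors and therapy were thus the lowest of the 12, and both-tumor IgG replicate 2 was the highest. As a share of all reads, the 38 genes took 0.3142% to 0.5618% of the other 9 libraries and 0.2474%, 0.0987% and 0.174% of the both-tumor therapy libraries. Gene by gene the order was much the same: in 36 of 38 genes all 3 both-tumor therapy libraries lay below all 9 others, which held for 14.5% of all genes tested. Replicate 2 of both-tumor therapy was the lowest of the 12 libraries in 38 of 38 genes. Replicate 2 of both-tumor IgG was the highest of its group in 38 of 38 genes and the highest of all 12 in 24. These positions of single libraries were not counted over all genes, so they describe the 38 genes only.

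**Figure D1:**
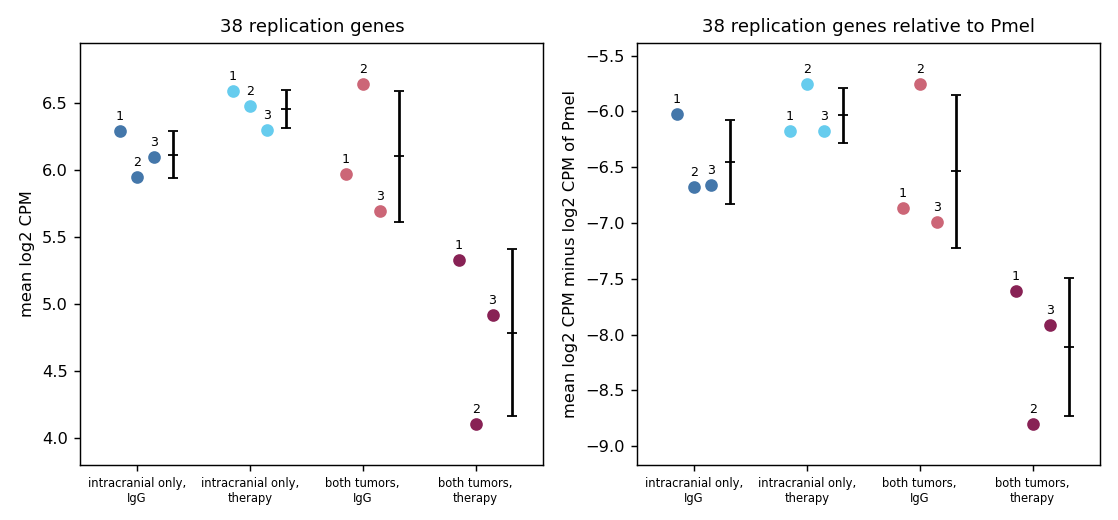
Each point is 1 library, numbered by replicate, and bars at the right of each group are mean ± SD (n = 3). The left panel shows the mean log2 CPM of the 38 genes and the right panel the same minus the log2 CPM of Pmel. The both-tumor therapy libraries are the lowest 3 of 12 in both panels, and replicate 2 of both-tumor IgG lies well above the other two of its group.

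With therapy in mice with both tumors, the replication genes were lower than with IgG. By edgeR's quasi-likelihood test with Benjamini-Hochberg adjustment, 27 of the 38 fell and 0 rose, against 4.14% of all genes tested that fell. All 38 fold changes were negative, with a median of -1.31 on the log2 scale, 2.48-fold lower, while the median of all genes was 0.02. The range ran from -1.73 for Chaf1b to -0.55 for Slbp. In 36 of 38 genes the 3 therapy libraries all lay below the 3 IgG libraries, which held for 20.1% of all genes. The exceptions were Slbp and Ccne2.

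These calls lie at the edge of the threshold. The adjusted p-values of the 38 genes ran from 0.0498 to 0.0752, and 0 of 38 genes, and 0 of all genes, passed with DESeq2's size factors in edgeR, with scaling to Pmel or with no filter on low counts. The same was so when any 1 of 9 libraries was left out, that is all but intracranial-only IgG replicate 2, both-tumor IgG replicate 3 and both-tumor therapy replicate 1. Leaving out both-tumor IgG replicate 2 gave a median of -0.98, and leaving out replicate 2 of both-tumor therapy one of -1.07. DESeq2 called 38 of 38, with 12.4% of all genes called lower. In the fit over all 12 libraries all 38 genes had an unadjusted p under 0.05, as did 5317 of the 15925 genes tested. All 38 fold changes stayed negative in every setting run. Without both-tumor IgG replicate 2 the groups did not overlap in 36 of 38 genes, which held for 23.7% of all genes.

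**Figure D2:**
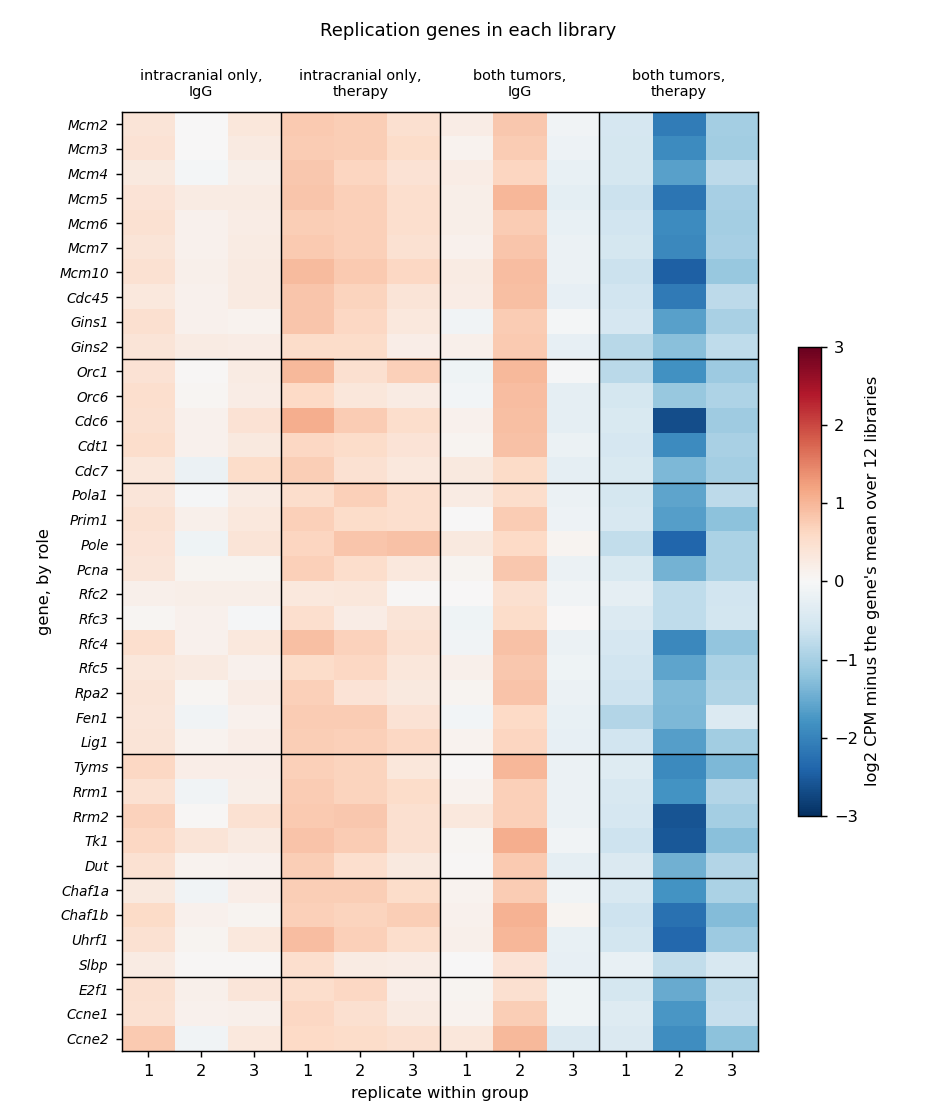
Rows are the 38 genes ordered by role (lines separate the roles, from helicase at the top to G1/S regulators at the bottom) and columns are the 12 libraries. Color is log2 CPM minus the gene's own mean over the 12 libraries. Replicate 2 of both-tumor therapy is the lowest column in all 38 rows.

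Helicase genes spanned most of the range of levels in the list, from rank 1 for Mcm2 to rank 35 of 38 for Gins2 by mean FPKM. Mcm2, a subunit of the ring, had the highest level per length, with a mean of 348 FPKM over the 12 libraries, and Mcm7 followed in this group with 149. In CPM, Mcm2 was at 541, 413 and 518 in intracranial-only IgG and 713, 683 and 575 in intracranial-only therapy. It was at 480, 719 and 383 in both-tumor IgG and 288, 95.5 and 202 in both-tumor therapy. The both-tumor therapy libraries are the lowest 3 and do not overlap with any other group. With therapy in mice with both tumors Mcm2 fell by 1.43 ± 0.35 (SE of the log2 fold change, n = 3 per group; adjusted p = 0.0498). Of the 10 helicase genes 9 fell, and Cdc45, which joins the ring to GINS, was at -1.38 ± 0.37 (adjusted p = 0.0523). Mcm10, needed to activate the ring, had the largest fall of this group, 1.62 ± 0.39. Gins2, a GINS subunit, had the smallest p of the 38. It was at 21.5, 33.5 and 16.5 CPM with IgG and 10.9, 8.11 and 11.4 with therapy, and fell by 1.23 ± 0.24 (adjusted p = 0.0498). Gins2 shares 67.3% of its exonic bases with genes on the other strand, and since no source used here gives the strand setting of the counting, its value is uncertain.

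Among the 5 genes that license and fire origins, 4 fell in that comparison. Orc1, the largest subunit of the origin recognition complex, was at 5.03, 10.9 and 5.35 CPM with IgG and 3.09, 1.49 and 2.53 with therapy, and fell by 1.57 ± 0.36. Cdt1, which brings the ring to the origin, was at 70.9, 124 and 59.4 CPM with IgG and 46.9, 18.1 and 34.2 with therapy. Groups did not overlap in either gene, and in both the middle IgG value lies closer to the highest therapy value than to the highest IgG value. Cdc6, the loader that works with Cdt1, was at 33.5, 57.2 and 25.3 CPM with IgG and 22.3, 4.73 and 14.5 with therapy. Its fold change was -1.48 ± 0.46 (adjusted p = 0.0674), which did not pass, with therapy libraries that differ widely among themselves. Orc6 and Cdc7 fell by 1.14 ± 0.29 and 1.15 ± 0.30.

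Of the 11 genes for polymerases, the clamp, its loader and strand processing, 9 fell. Pcna, the sliding clamp, was at 271, 224 and 221 CPM in intracranial-only IgG and 343, 303 and 262 in intracranial-only therapy. It was at 222, 369 and 185 in both-tumor IgG and 153, 78.5 and 109 in both-tumor therapy, again with the last 3 below the other 9. With therapy in mice with both tumors it fell by 1.19 ± 0.28 (adjusted p = 0.0498). Rfc5, a clamp loader subunit, fell by 1.31 ± 0.27, Rpa2, a single-strand binding protein, by 1.25 ± 0.27, and Lig1, the ligase that seals Okazaki fragments, by 1.24 ± 0.27, each with an adjusted p of 0.0498. Pola1 and Pole, catalytic subunits of replicative polymerases, fell by 1.12 ± 0.25 and 1.54 ± 0.35.

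The clamp loader genes did not all move by the same amount. Rfc2 and Rfc3 fell by 0.68 ± 0.17 and 0.75 ± 0.17, while Rfc4 was at -1.39 ± 0.36 (adjusted p = 0.0512). Rfc2 was at 116, 159 and 107 CPM with IgG and 94.5, 67.4 and 77.0 with therapy, and Rfc4 at 25.6, 50.4 and 24.4 with IgG and 19.3, 7.06 and 12.1 with therapy. Both genes had groups that did not overlap, and no test of the difference between the genes was made. Fen1, the flap nuclease of lagging strand synthesis, was the least abundant member at 4.05 FPKM, and its fold change of -0.99 ± 0.30 did not pass (adjusted p = 0.0618). It shares 84.2% of its exonic bases with genes on the other strand, mainly Tmem258, so its reads are uncertain. Exons of Rfc2 and Rfc4 are shared in part as well, at 15.1% and 12.7% of their bases.

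Of the 5 genes that supply nucleotides, 2 fell. Tk1, thymidine kinase, was at 89.0, 182 and 79.6 CPM with IgG and 55.5, 14.4 and 35.7 with therapy, and fell by 1.73 ± 0.43. Rrm1, the large subunit of ribonucleotide reductase, fell by 1.22 ± 0.31. Its partner Rrm2, which is present mainly in S phase, was the second most abundant member at 280 FPKM. Rrm2 was at 443, 282 and 375 CPM in intracranial-only IgG and 471, 484 and 384 in intracranial-only therapy. It was at 341, 448 and 242 in both-tumor IgG and 194, 45.3 and 134 in both-tumor therapy. The groups did not overlap, yet the spread within them was wide, and the fold change of -1.46 ± 0.43 did not pass (adjusted p = 0.0585). Tyms, thymidylate synthase, was at 51.8, 99.95 and 44.5 CPM with IgG and 38.6, 13.2 and 19.7 with therapy, at -1.45 ± 0.39 (adjusted p = 0.0523). Dut, which clears dUTP, was at -1.12 ± 0.30 (adjusted p = 0.0521).

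Of the 4 genes of histone supply and chromatin, the 2 that fell are subunits of the chromatin assembly factor, which places histones on new DNA. Chaf1b was at 64.9, 123 and 62.4 CPM with IgG and 38.8, 12.5 and 23.9 with therapy. It fell by 1.73 ± 0.37 (adjusted p = 0.0498), and Chaf1a by 1.29 ± 0.31. Of the exonic bases of Chaf1a, 52.5% are shared with Ubxn6 on the other strand. Uhrf1, which guides maintenance of DNA methylation, was at -1.56 ± 0.41 (adjusted p = 0.0512). Slbp, which binds the stem-loop of histone mRNAs, was the least changed member and had the largest p. It was at 66.5, 87.8 and 55.3 CPM with IgG and 56.8, 39.5 and 47.3 with therapy, so the groups overlapped. Its fold change was -0.55 ± 0.18 (adjusted p = 0.0752).

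Of the 3 regulators of the G1/S step, E2f1 fell. This transcription factor was at 81.0, 64.6 and 74.6 CPM in intracranial-only IgG, 82.8, 89.5 and 66 in intracranial-only therapy, 61.2, 80.2 and 52.9 in both-tumor IgG and 40.1, 20.2 and 34.9 in both-tumor therapy. With therapy in mice with both tumors it fell by 1.03 ± 0.24 (adjusted p = 0.0498), with no overlap. The cyclins Ccne1 and Ccne2, which activate Cdk2, were at -1.13 ± 0.32 (adjusted p = 0.0543) and -1.46 ± 0.41 (adjusted p = 0.0544). Ccne2 overlapped narrowly, with a lowest IgG library of 13.29 CPM and a highest therapy library of 13.32.

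With therapy in mice with the intracranial tumor only, 0 of 38 replication genes passed the test. Of all genes tested 0 passed as well, 0% higher, with 2151 at an unadjusted p under 0.05. All 38 fold changes were positive and small, from 0.07 for Rfc2 to 0.55 for Pole, with a median of 0.36 against -0.03 over all genes. The 3 therapy libraries all lay above the 3 IgG libraries in 21 of 38 genes, which held for 8.78% of all genes. The smallest adjusted p of the 38 was 0.453, and 0 of them had an unadjusted p under 0.05 by this test. Fitted on the 6 intracranial-only libraries alone, 18 of the 38 had an unadjusted p under 0.05, a count not made over all genes. In that fit 1 of the 38 passed, with a smallest adjusted p of 0.0497. Of 14560 genes tested there, 839 were called, 15 higher and 824 lower. The 5 with the smallest p were Rfc3 at 0.32 ± 0.17 (adjusted p = 0.453), Chaf1a at 0.54 ± 0.30 (0.480), Mcm4 at 0.49 ± 0.27 (0.480), Fen1 at 0.52 ± 0.29 (0.483) and Lig1 at 0.46 ± 0.26 (0.506). The 3 with the largest p were Orc6 at 0.13 ± 0.29 (0.884), Ccne2 at 0.17 ± 0.40 (0.892) and Rfc2 at 0.07 ± 0.17 (0.895). Mcm2 was at 0.42 ± 0.34, Pcna at 0.34 ± 0.28, Rrm2 at 0.28 ± 0.42, Tyms at 0.23 ± 0.38 and E2f1 at 0.11 ± 0.24, and none of these 5 passed. DESeq2, which called 1030 genes in this comparison, 61 higher and 969 lower, also called 0 of the 38.

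The extracranial tumor without therapy was not accompanied by a change that could be resolved. Between both-tumor IgG and intracranial-only IgG, 0 of 38 genes passed, as did 0% of all genes in either direction, with 188 genes at an unadjusted p under 0.05 and 0 called by DESeq2. Of the 38 fold changes 28 were positive and 10 negative, with a median of 0.03, and every one of the 38 genes had overlapping groups. All 3 libraries were higher in 1.68% and lower in 2.78% of all genes. E2f1 had the smallest p, at -0.18 ± 0.24, followed by Rfc3 at 0.13 ± 0.17, Chaf1b at 0.21 ± 0.36, Chaf1a at 0.17 ± 0.30 and Mcm4 at 0.12 ± 0.27. Cdt1 at 0.01 ± 0.33, Fen1 at 0.00 ± 0.29 and Gins2 at -0.00 ± 0.24 had the largest p, and the adjusted p was 1 for all 38. Mcm2 was at 0.10 ± 0.34, Pcna at 0.12 ± 0.28, Rrm2 at -0.09 ± 0.42 and Tyms at 0.02 ± 0.38. The direction rests on single libraries: without both-tumor IgG replicate 2 all 38 were negative with a median of -0.28, and without both-tumor IgG replicate 3 the median was 0.23.

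Under therapy, the same tumor difference was large. In both-tumor therapy against intracranial-only therapy, 38 of 38 replication genes fell, against 21.0% of all genes. The median was -1.63, 3.10-fold lower, beside 0.03 over all genes, and the range ran from -2.03 for Mcm10 to -0.76 for Rfc2. In all 38 genes the 3 both-tumor therapy libraries lay below the 3 intracranial-only therapy libraries, which held for 28.5% of all genes. All 38 were called in each of the alternatives run, including those that leave out 1 library each. Over these alternatives 23.2% to 49.7% of all genes tested were called, in either direction. The 5 with the smallest p were Lig1 at -1.71 ± 0.27, Pola1 at -1.49 ± 0.25, Pole at -1.99 ± 0.35, Gins2 at -1.39 ± 0.24 and Mcm4 at -1.55 ± 0.28, each with an adjusted p of 0.00455. Lig1 was at 170, 169 and 157 CPM in intracranial-only therapy and 69.1, 32.4 and 49.8 in both-tumor therapy. Pole, which had the widest ratio of these 5, was at 53.2, 60.5 and 62.6 CPM against 20.3, 6.37 and 17.6. For Lig1 and Pole the gap between the groups is far wider than the spread within intracranial-only therapy. The both-tumor therapy libraries differ more among themselves in both genes. The 3 largest p-values were those of Cdc6 at -1.96 ± 0.47 (adjusted p = 0.00799), Ccne1 at -1.31 ± 0.32 (0.00846) and Ccne2 at -1.61 ± 0.41 (0.0105). Mcm2 fell by 1.75 ± 0.35, Pcna by 1.42 ± 0.28, Rrm2 by 1.84 ± 0.43, Tyms by 1.66 ± 0.39 and E2f1 by 1.32 ± 0.24. This comparison shares its both-tumor therapy libraries with the first one, so the 2 sets of values are not independent.

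**Figure D3:**
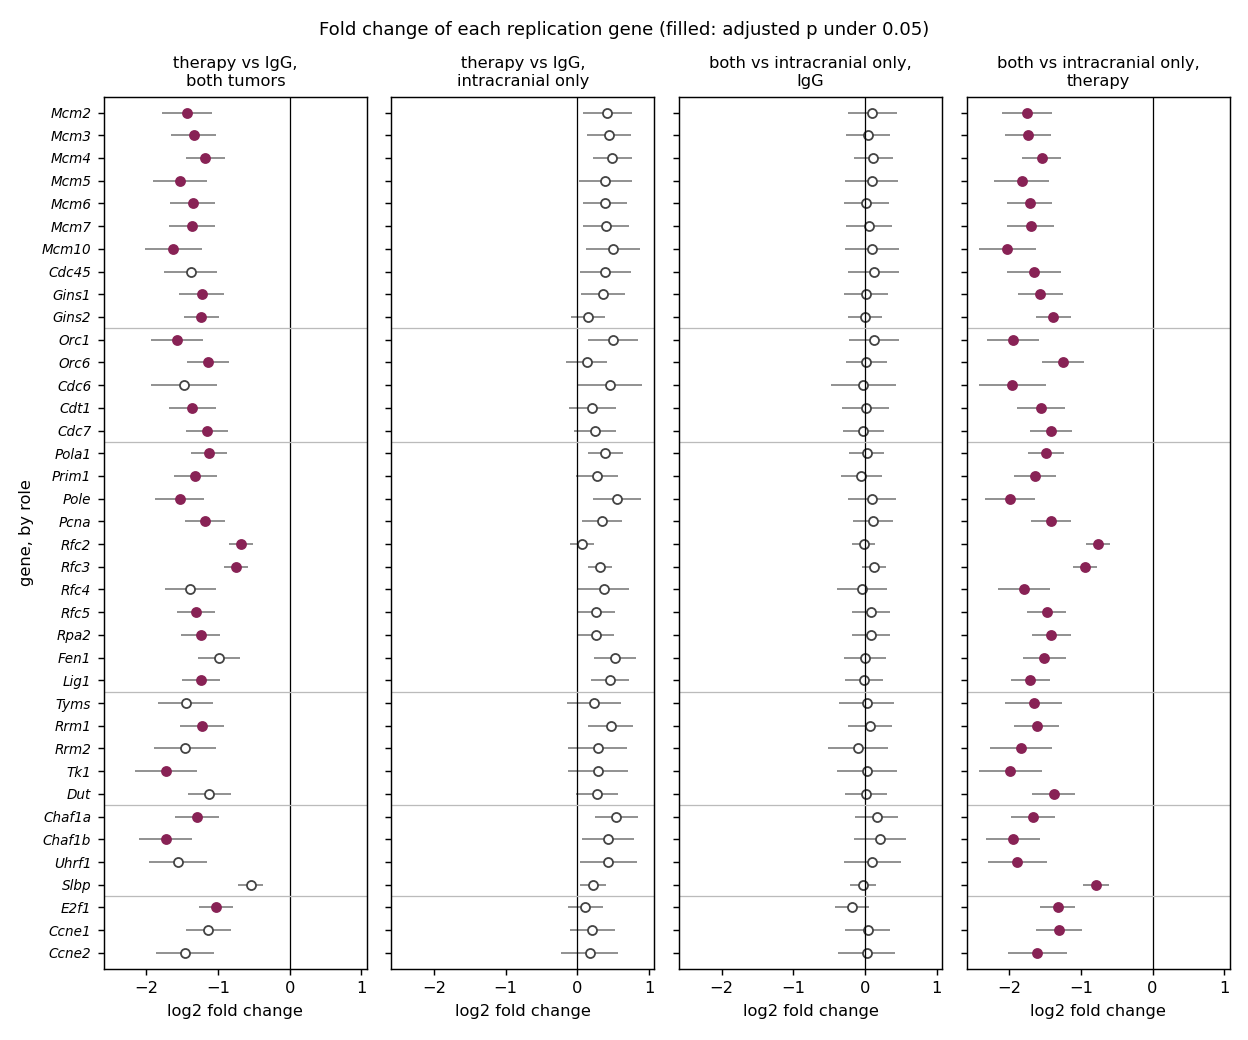
Each point is the log2 fold change of 1 gene with its SE, in 4 comparisons, with genes ordered by role and filled points past an adjusted p of 0.05. All 38 points are filled and negative for both against intracranial-only tumors under therapy, 27 are filled for therapy against IgG with both tumors, and 0 in the other 2 panels.

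Whether the therapy effect differed between mice with and without the extracranial tumor was tested by the interaction, the difference between both therapy effects on the log2 scale. It was negative in all 38 genes, with a median of -1.68 against 0.04 over all genes, and 33 of 38 passed as lower, against 9.93% of all genes. By role, 10 of 10 helicase genes, 4 of 5 origin genes, 11 of 11 polymerase, clamp and strand processing genes, 4 of 5 nucleotide supply genes, 3 of 4 chromatin genes and 1 of 3 regulators passed. The 5 with the smallest p were Lig1 at -1.69 ± 0.38, Rfc3 at -1.07 ± 0.24, Pole at -2.09 ± 0.48, Mcm4 at -1.66 ± 0.38 and Pola1 at -1.51 ± 0.35, each with an adjusted p of 0.0321. Mcm2 (-1.85 ± 0.49), Pcna (-1.53 ± 0.39), Tyms (-1.69 ± 0.54) and E2f1 (-1.14 ± 0.34) passed as well. The 5 that did not pass were Ccne1 (adjusted p = 0.0514), Slbp (0.0523), Cdc6 (-1.94 ± 0.64, 0.0529), Rrm2 (-1.74 ± 0.60, 0.0576) and Ccne2 (-1.63 ± 0.57, 0.0604). The calls depend on single libraries: 0 of 38, and 0 of all genes, passed when any 1 of 8 libraries was left out. Without both-tumor IgG replicate 2, 19 of the 38 passed, and 825 of 16367 genes tested passed as lower. The 8 were intracranial-only IgG replicates 2 and 3, the 3 intracranial-only therapy libraries, both-tumor IgG replicate 1 and both-tumor therapy replicates 2 and 3.

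The 38 genes were also set against the pigment gene Pmel, library by library. The 38 genes summed to 51.1, 108 and 45.6 reads per 100 reads of Pmel in both-tumor IgG and to 30.3, 12.7 and 23.8 in both-tumor therapy. They summed to 90.4, 56.8 and 58.1 in intracranial-only IgG and 81.5, 112 and 81.6 in intracranial-only therapy. Both-tumor therapy again holds the 3 lowest values, and each of the 38 genes taken alone had its 3 lowest ratios to Pmel there. In intracranial-only mice the 2 treatments overlapped on this scale, and only 2 of 38 genes had all 3 therapy libraries above the IgG libraries. For neither count was the share of all genes determined on this scale, so they describe the 38 genes only. Mcm2 reads per 100 Pmel reads were 6.55, 13.3 and 5.80 in both-tumor IgG and 3.67, 1.25 and 2.76 in both-tumor therapy. Pmel itself did not pass in any comparison, with 0.24 ± 0.18 for therapy in mice with both tumors (adjusted p = 0.336), -0.07 ± 0.18 in intracranial-only mice (0.903), 0.08 ± 0.18 and 0.39 ± 0.18 for the extracranial tumor under IgG and therapy (1 and 0.0954), and 0.31 ± 0.25 for the interaction (0.371). With all counts scaled to Pmel, the median of all genes was -0.24 for the therapy effect in both-tumor mice (0.02 with TMM) and -0.39 under therapy for the extracranial tumor (0.03 with TMM), beside member medians of -1.62 and -2.04. On that scale 0 of 38 genes passed for the therapy effect in both-tumor mice, with adjusted p-values from 0.0824 to 0.0945.

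Other genes of replication, not among the 38, were lower in the same comparisons. Of 32 such genes, 13 fell with therapy in mice with both tumors (median -1.06), 32 fell under therapy with the extracranial tumor (median -1.29), and 24 passed as lower in the interaction. Dnmt1, the maintenance DNA methyltransferase, fell by 1.13 ± 0.22 with therapy in mice with both tumors, Prim2, a primase subunit, by 1.13 ± 0.22, Orc2 by 0.93 ± 0.19 and Ticrr, which helps origins fire, by 1.58 ± 0.34. Under therapy with the extracranial tumor these 4 list leaders were Prim2 (-1.48 ± 0.23), Dnmt1 (-1.48 ± 0.23), Wdhd1 (-1.58 ± 0.26) and Ticrr (-2.06 ± 0.35). None of the 32 passed with therapy in intracranial-only mice, where 2 had an unadjusted p under 0.05, or between the IgG groups.

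The G1/S control genes were mixed. Of 21 such genes 6 fell with therapy in mice with both tumors, namely the E2F family members E2f7 (-1.56 ± 0.32) and E2f8 (-1.11 ± 0.25), Myc (-1.30 ± 0.28), the E2F partner Tfdp1 (-1.21 ± 0.28), Rbl1 and Cdc25a. E2f7 and E2f8 act as repressors among the E2F factors, and Rbl1 is a relative of the retinoblastoma protein. Under therapy with the extracranial tumor 11 fell and 1 rose, the kinase inhibitor Cdkn2c at 0.71 ± 0.17 (adjusted p = 0.00911). Cdkn1a, an inhibitor as well, fell there by 1.60 ± 0.38 (adjusted p = 0.00796). It was at 126, 325 and 130 CPM in intracranial-only therapy and 62.7, 55.95 and 73.3 in both-tumor therapy. The size of this fall thus leans on intracranial-only therapy replicate 2. Ccnd1, the D-type cyclin, was at -0.30 ± 0.18 with therapy in mice with both tumors (adjusted p = 0.254), and Rb1 at 0.51 ± 0.20 (adjusted p = 0.117). Cdc25a, Cdkn2c, Cdkn1a, Ccnd1 and Rb1 were picked from this list after their values were seen. In the interaction 7 of 21 passed as lower, led by Rbl1 (-1.13 ± 0.23), E2f7 (-2.07 ± 0.44), Myc (-1.71 ± 0.39) and E2f8 (-1.52 ± 0.35).

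Genes of G2 and mitosis were compared to see whether S phase genes stood apart from the rest of the cycle. Of 20 such genes, 11 fell with therapy in mice with both tumors (median -1.47), 20 fell under therapy with the extracranial tumor (median -1.97) and 20 passed as lower in the interaction (median -1.94). Mki67, a marker of cycling cells, was at 231, 299 and 178 CPM in both-tumor IgG and 124, 35.2 and 81.4 in both-tumor therapy. Its fold changes were -1.56 ± 0.39 with therapy in mice with both tumors (adjusted p = 0.0498), 0.47 ± 0.39 in intracranial-only mice (0.658), -0.08 ± 0.38 between the IgG groups (1), -2.10 ± 0.40 for the extracranial tumor under therapy (0.00458) and -2.03 ± 0.55 for the interaction (0.0336). Ccnb1, a mitotic cyclin, fell by 1.82 ± 0.40 and the topoisomerase gene Top2a by 1.31 ± 0.31 with therapy in mice with both tumors. The mean log2 CPM of the 38 genes minus that of the mitosis genes was -0.28 ± 0.03 (SD, n = 3) in both-tumor IgG. In both-tumor therapy it was -0.04 ± 0.23. The ranges, -0.31 to -0.24 and -0.20 to 0.23, did not overlap but lay close. Only in replicate 2 of both-tumor therapy was the mean of the 38 genes the higher one, at 4.10 against 3.87. In intracranial-only mice the difference was -0.34 ± 0.11 with IgG and -0.48 ± 0.12 with therapy. No test between the lists was made.

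Markers of several other cell types, though not of all, moved with the same groups. With therapy in mice with both tumors, the 7 T cell markers summed to 1.52 to 13.6 CPM with IgG and 40.9 to 87.7 with therapy, and 0 of 7 passed, with 5 at an unadjusted p under 0.05. The 7 oligodendrocyte markers summed to 216 to 825 and 842 to 1677 CPM, and 1 of 7 passed as higher. The 6 astrocyte markers summed to 128 to 658 and 794 to 1669 CPM with 0 of 6 passing, the 6 microglia markers to 35.9 to 152 and 161 to 347 CPM with 1 of 6, and the 6 monocyte and macrophage markers to 88.6 to 234 and 482 to 649 CPM with 1 of 6. Of all genes tested, 1.24% passed as higher there. Of the neuron markers 0 of 8 passed, and all 8 overlapped between the groups. Of the endothelial markers 1 of 5 passed, and of the pericyte and fibroblast markers 0 of 5. Under therapy with the extracranial tumor all 38 replication genes fell. In that comparison 8 of 8 neuron, 7 of 7 oligodendrocyte and 5 of 6 astrocyte markers rose, against 24.4% of all genes. So did 6 of 6 microglia, 4 of 6 monocyte and macrophage and 6 of 7 T cell markers. Fewer rose among endothelial (3 of 5) and pericyte and fibroblast markers (1 of 5). None of the marker lists had a gene with 0 reads in either both-tumor group. The part of these cells in the fall of the replication genes was not tested.

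**Figure D4:**
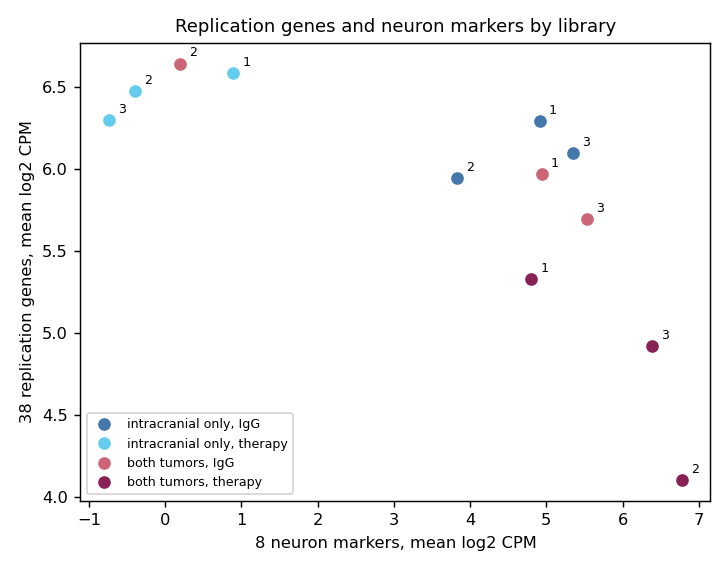
Each point is 1 library, numbered by replicate and colored by group: the horizontal axis is the mean log2 CPM of 8 neuron markers and the vertical axis that of the 38 replication genes. Intracranial-only therapy and both-tumor IgG replicate 2 lie at the left (neuron mean 0.89 or less), and the 3 both-tumor therapy libraries are the lowest, at neuron means of 4.80, 6.78 and 6.39.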

How the data were processed

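Per the labels' protocols, RNA came from an RNAqueous-Micro kit and libraries from a NEBNext Ultra RNA kit. The submitters' processing notes name TopHat2 2.0.12, Bowtie2 2.2.3 and HTSeq 0.6.1 and the build GRCm38 (mm10). No source used here gives the annotation release or the strand setting. The authors deposited raw read counts per Ensembl gene and a second table of FPKM, which served for levels between genes and 1 alternative. Identifiers of 46488 of 47069 genes matched a symbol.

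Counts were tested with edgeR 4.0.16 (R 4.3.3): TMM scaling, filterByExpr (minimum count 10, minimum total 15), 4 group means over 12 libraries, the quasi-likelihood test, and Benjamini-Hochberg adjustment over 15925 genes at 0.05. The biological coefficient of variation was 33.5%. Log2 CPM used a prior count of 2, and SEs were derived from the fold change and the F statistic. The test was checked on simulated counts with genes drawn independently of each other, so the check does not bear on genes that move together. Alternatives were DESeq2 1.42.0, limma 3.58.1 on log2(FPKM + 1), other scalings, no filter, fits of 2 groups alone, and leaving out each library. Replicates were numbered in accession order and not paired. Exon overlaps came from GENCODE M21 (GRCm38). The members and lists were chosen with earlier results of these data known. In each comparison the rule named the 5 smallest and 3 largest p-values, E2f1, Mcm2, Pcna, Rrm2, Tyms, Pmel and Mki67, and up to 4 genes of each other list. A few more are marked in the text.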

Additional observations from a re-analysis of the deposited data

Results flagged for a closer look

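The effect of therapy differed between mice with and without the extracranial tumor in 33 of the 38 replication genes, by edgeR's interaction term with an adjusted p under 0.05, against 9.93% of all genes that passed as lower. When any 1 of 8 libraries was left out, 0 of the 38, and 0 of all genes, passed. The difference between both therapy effects, on the log2 scale, was -1.69 for Lig1, -1.07 for Rfc3, -2.09 for Pole, -1.66 for Mcm4 and -1.51 for Pola1, the 5 genes with the smallest p. It was -1.14 for E2f1, -1.85 for Mcm2, -1.53 for Pcna and -1.69 for Tyms. All of these are negative, since the genes were lower with therapy in both-tumor mice and slightly, not significantly, higher with therapy in intracranial-only mice.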

How the results depend on the processing

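For therapy in mice with both tumors, 27 members and 858 genes were called. With DESeq2's size factors, scaling to Pmel, scaling to the pigment list (chosen after seeing the data), no filter or only the libraries of both groups compared, 0 members and 0 genes were called. DESeq2 called 3323 genes and limma on FPKM 2630, with 38 and 37 members. Leaving out 1 library gave 0 to 38 members and 0 to 2394 genes. Members called were 27 without intracranial-only IgG replicate 2, 38 without both-tumor IgG replicate 3, 37 without both-tumor therapy replicate 1 and 0 without each of the other 9. For therapy in intracranial-only mice, where 0 genes were called, DESeq2 called 1030 and the fit of both groups alone 839, with 1 member. Leaving out 1 library gave 0 to 1002 genes. For the extracranial tumor under therapy, scaling to Pmel moved the members' median to -2.04, and leaving out 1 library gave 4710 to 8128 genes. For the interaction, 3505 genes were called, with 1771 after scaling to Pmel and 1901 after scaling to the pigment list. Leaving out 1 library gave 0 to 4367 genes and 0 to 38 members. Genes that were higher made up 53.7% of the calls for the extracranial tumor under therapy, against 33.9% with scaling to Pmel. In the interaction they made up 54.9%, against 66.8% with Pmel and 75.4% with the pigment list. Between the IgG groups, where 0 genes were called (188 at an unadjusted p under 0.05, and 0 by DESeq2), the sign turned for Gins2 (0.018 with DESeq2's size factors, 0.028 with no filter and 0.018 with DESeq2). It turned for Cdt1, Fen1 and Tyms with Pmel scaling (-0.029, -0.048 and -0.019), pigment scaling (-0.021, -0.038 and -0.0082) and limma on FPKM (-0.048, -0.019 and -0.050), and for Fen1 with both groups alone (-0.0042). Leaving out 1 library, the value between the IgG groups ran from -0.10 to 0.26 for Rfc3, -0.18 to 0.39 for Chaf1b, -0.13 to 0.34 for Chaf1a, -0.12 to 0.31 for Mcm4, -0.37 to 0.22 for Cdt1 and -0.30 to 0.16 for Fen1. It ran from -0.33 to 0.21 for Gins2, -0.19 to 0.29 for Mcm2, -0.23 to 0.31 for Pcna, -0.33 to 0.11 for Rrm2 and -0.42 to 0.24 for Tyms, lowest in each without both-tumor IgG replicate 2. For therapy in intracranial-only mice Ccne2 ran from -0.017 to 0.42. The cause of these changes was not tested. No paired analysis was possible because the labels give no replicate numbers. Each of the 38 genes had at least 30 reads in every library.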
